A study of Mus musculus with 22 samples.

Results

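The 10 genes described here are 4 annexins, Anxa1, Anxa2, Anxa3 and Anxa5, and 6 S100 genes, S100a4, S100a6, S100a8, S100a9, S100a10 and S100a11, out of 45777 genes counted in mouse liver. They were taken by gene symbol from both count tables. The list was chosen with the fold changes of these same libraries already known, so the members' own differences between groups are a description and support no statement about the families. The tables hold 29 annexin and S100 genes in all, and the 19 that are not members are described after the members.

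The livers came from male wild-type C57BL/6J mice in 2 cohorts of 11 libraries, prepared from polyA RNA with a stranded kit. The HFD cohort has 4 libraries of mice on a high-fat diet given DTMB (HFD DTMB), 4 of mice on that diet given vehicle (HFD vehicle) and 3 of normal-diet mice given vehicle (ND). The MCD cohort has 3 libraries of mice on a methionine- and choline-deficient diet given DTMB (MCD DTMB), 4 of mice on that diet given vehicle (MCD vehicle) and 4 of its own ND group. DTMB, which the labels give only as a code, was dosed orally at 10 mg/kg each day, and no normal-diet mice given DTMB were analysed here. The labels call the HFD livers MASLD (metabolic dysfunction-associated steatotic liver disease), the MCD livers MASH (the steatohepatitis form) and the ND livers normal. The sources used here give no age, time on diet or composition of the vehicle. The labels name the cohort as the batch, so cohort, diet model and batch cannot be told apart.

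Annexins are cytosolic proteins that bind membrane phospholipids when calcium rises, and they serve in membrane repair, vesicle traffic and the handling of dying cells. S100 proteins are small proteins of the EF-hand type, most of which sense calcium and act as dimers. Some dock onto an annexin: S100a10 with Anxa2, S100a11 with Anxa1 and Anxa2, and S100a6 with several annexins. S100a8 and S100a9 pair as calprotectin, a major cytosolic protein of neutrophils and monocytes that signals through Tlr4 once released. In normal liver, Anxa2 and S100a4 are known mainly from the non-parenchymal cells (macrophages, fibroblasts, bile duct and endothelial cells).

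Each library held between 50.1 and 66.7 M counts. Levels are given in CPM, counts scaled to a common depth with TMM inside each cohort, so a level in the HFD cohort cannot be set against one in the MCD cohort. The hepatocyte gene Alb was at 41258 to 84813 CPM in all 22 libraries. Markers of pancreatic acinar cells (Amy2a5, Pnlip and 6 others) summed to 265 to 2286 CPM of total counts in 6 libraries, ND replicates 1 and 3, HFD vehicle replicates 1 and 4 and HFD DTMB replicate 3 of the HFD cohort and ND replicate 4 of the MCD cohort, against at most 9.80 CPM in any other. Log2 fold changes with their standard error (SE) are from edgeR's quasi-likelihood model of a cohort's 3 groups. A gene passed the test where its Benjamini-Hochberg adjusted p, taken over the whole table of tested genes, was under 0.05. All 10 members were tested in both cohorts, so the filter on low counts removed none. However, S100a8 in the MCD cohort was kept only through the MCD groups, its ND libraries having at most 8 counts. In the HFD cohort, S100a4 (22, 4 and 16 counts in ND libraries) and S100a8 (37, 0 and 23) were kept only through the HFD groups. In whole liver RNA, fewer cells of a type and less RNA per cell cannot be told apart.

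Per length, S100a10 and Anxa5 were the most abundant members. In ND livers of the HFD cohort, S100a10 stood at 72.5 CPM per kb of merged exon and Anxa5 at 44.6 CPM per kb. S100a11 followed at 6.26 and Anxa2 at 1.95 CPM per kb. The other 6 members lay between 0.376 (S100a6) and 1.00 (S100a9) CPM per kb. The ND livers of the MCD cohort gave the same first 4 members, S100a10 at 62.0, Anxa5 at 54.6, S100a11 at 8.35 and Anxa2 at 2.59 CPM per kb. All 6 S100 members lie on chromosome 3, between 90603770 and 93564645 (GRCm38.p6), while the 4 annexins lie on chromosomes 19 (Anxa1, 20373434 to 20390671), 9 (Anxa2, 69453683 to 69491792), 5 (Anxa3, 96793385 to 96845968) and 3 (Anxa5, 36448923 to 36475887). Of genes annotated within a member, Mir3109, within Anxa2, had 0 counts, and Mir7009, within Anxa5, had 29 counts over all libraries, against 152626 for Anxa5. The pseudogene S100a11-ps had 0 counts.

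Promoters were available for 8 of the 10 members from RefSeq (GRCm38.p6), each 250 bases before and 50 after the annotated start. Those of the 5 members that passed the test as lower in HFD DTMB than in HFD vehicle livers are shown, a choice made on that call. Anxa2 is at chr9:69453433-69453732 (plus strand), S100a11 at chr3:93520246-93520545 (plus), S100a4 at chr3:90603520-90603819 (plus), S100a6 at chr3:90612644-90612943 (plus) and Anxa5 at chr3:36475838-36476137 (minus). Capitals mark the AP-1 type motif TGANTCA, searched on both strands, and the TATA-type motif TATAAA, searched on the gene's strand.
Anxa2: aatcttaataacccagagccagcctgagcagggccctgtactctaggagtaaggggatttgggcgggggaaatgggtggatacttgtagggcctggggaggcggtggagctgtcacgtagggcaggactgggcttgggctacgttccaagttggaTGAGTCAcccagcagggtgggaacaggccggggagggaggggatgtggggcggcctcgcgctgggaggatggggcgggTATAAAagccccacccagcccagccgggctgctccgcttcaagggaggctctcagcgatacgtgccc
S100a11: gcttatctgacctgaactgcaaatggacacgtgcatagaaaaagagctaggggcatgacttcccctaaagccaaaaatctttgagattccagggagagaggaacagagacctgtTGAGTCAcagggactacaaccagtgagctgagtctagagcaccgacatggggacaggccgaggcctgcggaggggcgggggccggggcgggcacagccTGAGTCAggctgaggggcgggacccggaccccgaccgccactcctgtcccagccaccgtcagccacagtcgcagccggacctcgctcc
S100a4: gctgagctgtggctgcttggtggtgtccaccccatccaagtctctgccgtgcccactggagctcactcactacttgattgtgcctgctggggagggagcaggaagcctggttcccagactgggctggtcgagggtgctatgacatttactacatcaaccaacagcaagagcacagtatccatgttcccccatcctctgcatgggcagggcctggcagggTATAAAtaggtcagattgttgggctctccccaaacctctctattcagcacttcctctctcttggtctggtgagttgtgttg
S100a6: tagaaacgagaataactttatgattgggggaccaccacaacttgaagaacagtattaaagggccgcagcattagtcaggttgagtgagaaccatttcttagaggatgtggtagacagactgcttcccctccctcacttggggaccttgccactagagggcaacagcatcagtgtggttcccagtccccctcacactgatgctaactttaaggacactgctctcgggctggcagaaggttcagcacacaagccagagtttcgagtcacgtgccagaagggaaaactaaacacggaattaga
Anxa5: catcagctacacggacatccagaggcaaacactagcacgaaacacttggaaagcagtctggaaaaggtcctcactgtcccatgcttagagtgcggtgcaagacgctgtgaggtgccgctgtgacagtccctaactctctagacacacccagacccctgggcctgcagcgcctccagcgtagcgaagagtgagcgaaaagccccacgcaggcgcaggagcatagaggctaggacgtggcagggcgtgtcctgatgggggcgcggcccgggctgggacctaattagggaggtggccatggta
The AP-1 type motif was present in 2 of the 8 member promoters, against 7.93% of 27025 promoters of this length. In Anxa2 the AP-1 type motif lay 95 to 89 bases before the start, with TATAAA at 17 to 12, and S100a11 held it at 136 to 130 and again at 38 to 32 bases before the start. TATAAA was present in 5 of the 8, Anxa1, Anxa2, S100a4, S100a8 and S100a9, against 8.88% of the 27025; in S100a9 it begins at the annotated start itself, and in the other 4 it lies before the start. An NF-kB motif was found in 0 of the 8 and in 4.35% of the 27025. These matches describe letters in a window, not bound sites.

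Among the annexin members, Anxa2 separated all 3 groups of the HFD cohort. HFD DTMB livers had 13.1, 10.2, 13.4 and 9.72 CPM, HFD vehicle livers 30.9, 31.4, 24.7 and 48.1 CPM, and ND livers 7.20, 7.75 and 6.82 CPM. No library of any of the 3 groups overlapped another group, with HFD vehicle highest, HFD DTMB between and ND lowest. The log2 fold change was -1.54 ± 0.18 for HFD DTMB against HFD vehicle, 2.22 ± 0.21 for HFD vehicle against ND and 0.68 ± 0.20 for HFD DTMB against ND, and each passed the test.

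Anxa5, which binds phosphatidylserine on dying cells, was at 73.0, 49.5, 63.5 and 52.0 CPM in HFD DTMB livers, at 119, 95.8, 110 and 129 CPM in HFD vehicle livers and at 72.0, 83.0 and 82.8 CPM in ND livers. All HFD vehicle libraries were above the others, and HFD DTMB overlapped ND only at replicate 1 of each. HFD DTMB against HFD vehicle gave -0.93 ± 0.13, HFD vehicle against ND 0.52 ± 0.14 and HFD DTMB against ND -0.41 ± 0.14, all past the threshold. The call against ND was narrow (adjusted p = 0.0403 in edgeR's test) and was lost without any one of HFD DTMB replicates 2, 3 and 4 or ND replicates 2 and 3.

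The other annexin members were at a few CPM and overlapped between groups. Anxa1, the ligand of formyl peptide receptors known from the resolution of inflammation, had 2.25, 2.78, 2.86 and 2.78 CPM in HFD DTMB livers, 3.93, 4.8, 2.42 and 5.0 CPM in HFD vehicle livers and 2.74, 2.78 and 2.02 CPM in ND livers. HFD vehicle replicate 3 lay within the range of the others, and HFD vehicle against ND, at 0.68 ± 0.23, passed the test narrowly (adjusted p = 0.0422 in edgeR's test). Anxa1 in HFD DTMB against HFD vehicle was at -0.60 ± 0.21 and did not pass in edgeR's test (adjusted p = 0.0762), while it passed in DESeq2 (adjusted p = 0.042) and with scaling by library size alone (-0.76, adjusted p = 0.0338). Anxa3 had 1.37, 1.97, 2.24 and 1.78 CPM in HFD DTMB livers, 2.69, 3.12, 1.29 and 3.05 CPM in HFD vehicle livers and 2.09, 1.36 and 2.06 CPM in ND livers. It passed neither for HFD DTMB against HFD vehicle (-0.46 ± 0.27) nor for HFD vehicle against ND (0.46 ± 0.29), and its HFD vehicle replicate 3 was the lowest value of the cohort.

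**Figure D1:**
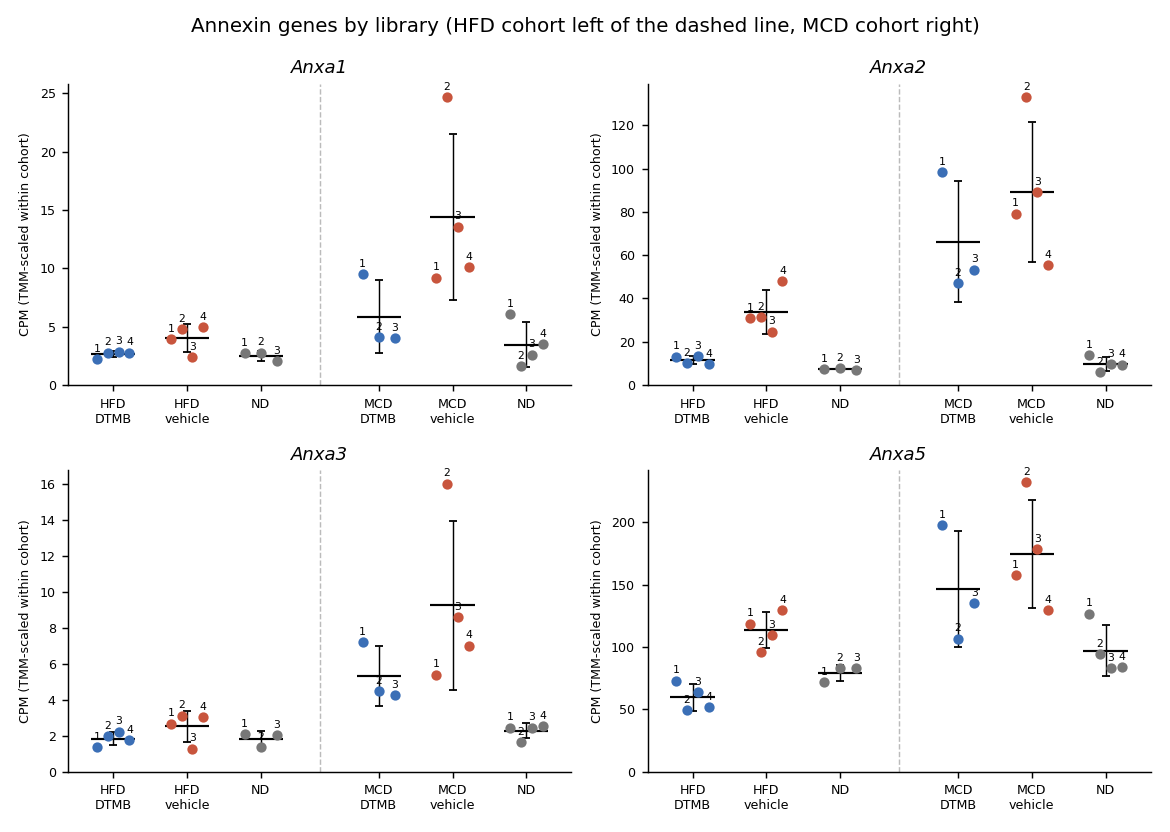
Levels of the 4 annexin members in CPM (vertical axes, linear, from 0) in each library, numbered by replicate, with the HFD cohort left and the MCD cohort right of the dashed line. Bars give the group mean and SD; Anxa2 was at 9.72 to 13.4 CPM in HFD DTMB, 24.7 to 48.1 CPM in HFD vehicle and 6.82 to 7.75 CPM in ND livers, and in the MCD cohort the highest vehicle library of all 4 genes was replicate 2.

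Among the S100 members, S100a4, S100a6 and S100a11 were higher in HFD vehicle than in ND livers and lower in HFD DTMB than in HFD vehicle livers. S100a4, a regulator of non-muscle myosin found in fibroblasts and macrophages, had 0.144, 0.383, 0.691 and 0.237 CPM in HFD DTMB livers, 1.66, 1.48, 0.565 and 1.72 CPM in HFD vehicle livers and 0.341, 0.0768 and 0.294 CPM in ND livers. These rest on few reads, 83 counts in all in HFD DTMB, 348 in HFD vehicle and 42 in ND livers. HFD vehicle replicate 3 overlapped HFD DTMB replicate 3, while every HFD vehicle library was above every ND library. The log2 fold changes were -1.89 ± 0.51 for HFD DTMB against HFD vehicle and 2.49 ± 0.60 for HFD vehicle against ND. As S100a4 was kept in this cohort only through the HFD groups, its call against ND is a description.

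S100a6, a partner of the ubiquitin-pathway protein Cacybp, had 0.575, 0.725, 0.675 and 0.609 CPM in HFD DTMB livers, 1.81, 1.69, 0.791 and 1.56 CPM in HFD vehicle livers and 0.511, 0.441 and 0.589 CPM in ND livers. The HFD vehicle libraries were above all others, with replicate 3 close to the HFD DTMB range, and the fold changes were -1.18 ± 0.26 for HFD DTMB against HFD vehicle and 1.51 ± 0.29 for HFD vehicle against ND. S100a11, which docks onto Anxa1 and Anxa2, had 4.66, 2.44, 3.09 and 2.76 CPM in HFD DTMB livers, 7.63, 5.03, 5.18 and 10.8 CPM in HFD vehicle livers and 2.65, 3.49 and 3.46 CPM in ND livers. Its HFD vehicle libraries were all above the rest, HFD DTMB and ND overlapped, and the fold changes were -1.15 ± 0.26 for HFD DTMB against HFD vehicle and 1.17 ± 0.29 for HFD vehicle against ND. S100a4, S100a6 and S100a11 passed both tests, and HFD DTMB against ND passed for none of them.

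S100a10 did not follow Anxa2. It had 105, 106, 106 and 132 CPM in HFD DTMB livers, 120, 118, 118 and 121 CPM in HFD vehicle livers and 78.9, 94.2 and 90.4 CPM in ND livers. Both HFD groups were above ND without overlap, and HFD DTMB replicate 4 was above every HFD vehicle library. HFD vehicle against ND was 0.44 ± 0.09 and HFD DTMB against ND 0.36 ± 0.09, both past the threshold, and HFD DTMB against HFD vehicle was -0.08 ± 0.09 and did not pass.

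The calprotectin genes were near the limit of what these libraries count. S100a8 had 13, 15, 10 and 18 counts in HFD DTMB libraries, 52, 17, 10 and 31 counts in HFD vehicle libraries and 37, 0 and 23 counts in ND libraries. S100a9 had 31, 34, 32 and 13 counts in HFD DTMB libraries, 90, 34, 32 and 104 counts in HFD vehicle libraries and 41, 18 and 32 counts in ND libraries. Groups overlapped for both genes and neither passed a test in this cohort: HFD DTMB against HFD vehicle gave -0.77 ± 0.73 for S100a8 and -1.03 ± 0.44 for S100a9, and HFD vehicle against ND gave 0.34 ± 0.77 and 0.94 ± 0.48 for the same genes in that order. HFD vehicle replicates 1 and 4, the highest of their group for both genes, were the HFD vehicle libraries with acinar markers.

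**Figure D2:**
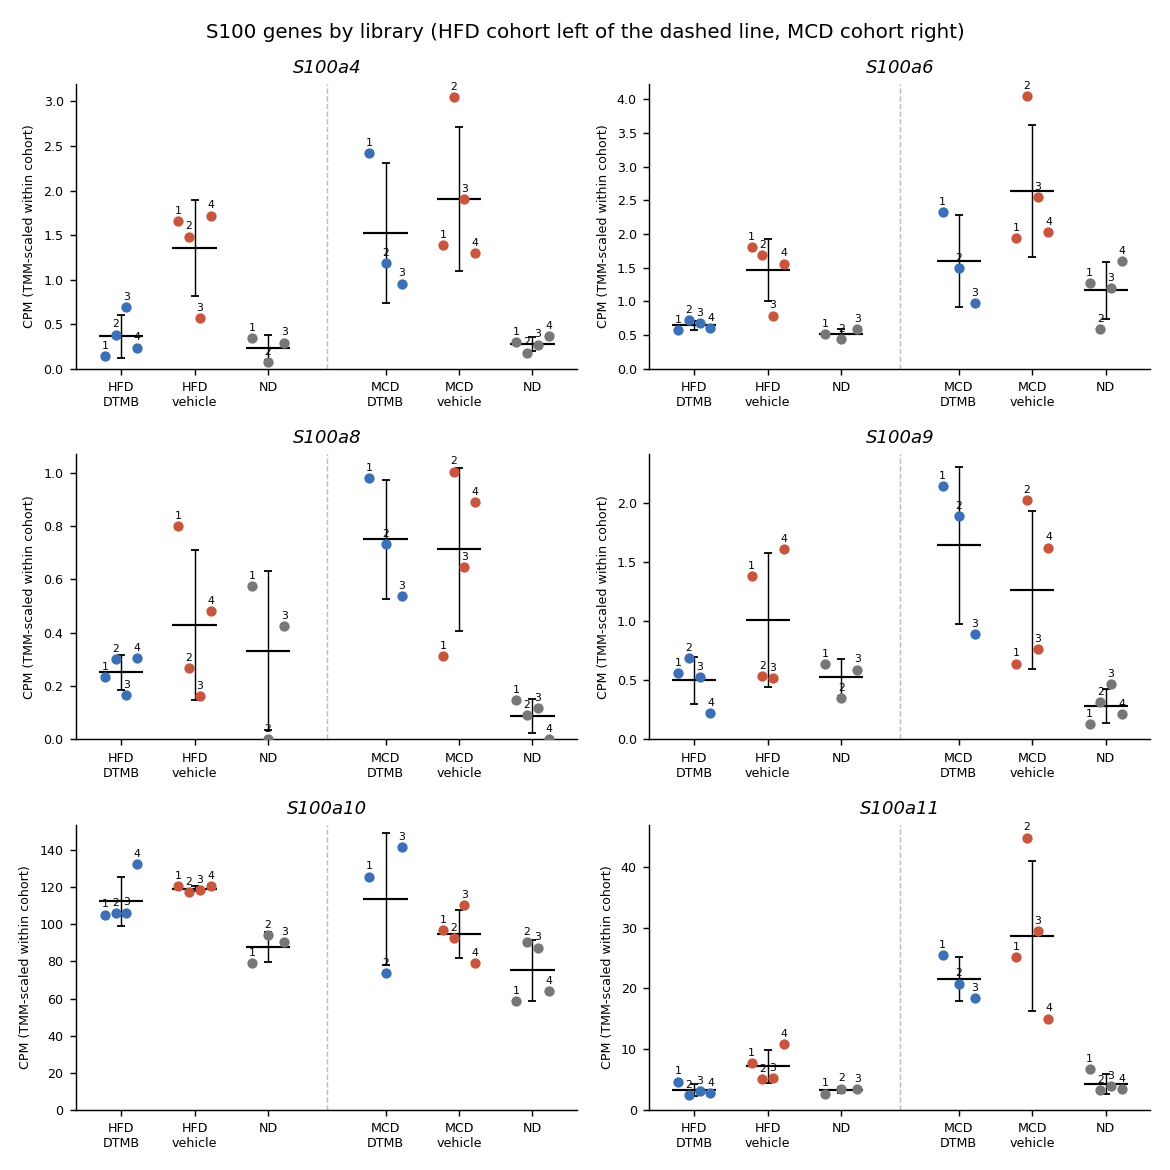
Levels of the 6 S100 members in CPM (vertical axes, linear, from 0) in each library, numbered by replicate, with the HFD cohort left and the MCD cohort right of the dashed line. Bars give the group mean and SD; S100a11 was at 2.44 to 4.66 CPM in HFD DTMB, 5.03 to 10.8 CPM in HFD vehicle and 2.65 to 3.49 CPM in ND livers, while S100a10 was at 105 to 132, 118 to 121 and 78.9 to 94.2 CPM in those groups.

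Counted over the HFD cohort, 0 members were higher and 5 lower in HFD DTMB than in HFD vehicle livers (Anxa2, Anxa5, S100a4, S100a6 and S100a11), where 6.64% of all 15597 genes tested were higher and 6.04% lower. The libraries did not overlap for 4 of those 5, against 9.35% of all genes lying wholly lower. DESeq2 called 6 members lower, with Anxa1 added. Between HFD vehicle and ND livers, 7 members were higher and 0 lower, where 15.2% of all genes were higher and 12.6% lower. For 6 members every HFD vehicle library was above every ND library, against 19.0% of all genes. S100a4, in both of these counts, was kept only through the HFD groups, so its part in them is a description. Between HFD DTMB and ND livers, 2 members were higher (Anxa2 and S100a10) and 1 lower (Anxa5), where 15.7% of all genes were higher and 13.5% lower; for 2 members all HFD DTMB libraries were above ND, against 18.9% of all genes. The median log2 fold change of the members was -0.98 in HFD DTMB against HFD vehicle livers and 0.81 in HFD vehicle against ND livers, where that of all genes was -0.01 and 0.02. The members were chosen on these contrasts, which share the HFD vehicle libraries, so the counts describe the choice.

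Which of these calls rests on a single library differed by gene. In edgeR's test of HFD DTMB against HFD vehicle, Anxa2 and Anxa5 passed whichever single library was left out. S100a6 did not pass without HFD DTMB replicate 4 (-1.16, adjusted p = 0.0562) or without HFD vehicle replicate 1 (-1.06, adjusted p = 0.061). For S100a11 the adjusted p was 0.0505, 0.0525 and 0.0627 without HFD DTMB replicates 2, 3 and 4, and 0.0578 and 0.052 without HFD vehicle replicates 1 and 4. For S100a4 it was 0.056, 0.0733 and 0.102 without HFD DTMB replicates 1, 2 and 4, and 0.0922, 0.0718 and 0.0874 without HFD vehicle replicates 1, 2 and 4. Without HFD vehicle replicate 3, more rather than fewer passed and 7 members were lower, with Anxa1 at -0.78 and Anxa3 at -0.68 added. The count of members lower in HFD DTMB was 2 to 7 over all single omissions, with 2 without HFD vehicle replicate 1 or HFD DTMB replicate 4 and 3 without HFD vehicle replicate 4 or HFD DTMB replicate 2. For HFD DTMB against ND, Anxa2 did not pass without HFD DTMB replicate 3 (0.60), ND replicate 1 (0.65) or ND replicate 3 (0.64), and S100a10 not without ND replicate 1 (0.27). For HFD vehicle against ND, Anxa1 passed only with all libraries or without HFD vehicle replicate 3 (0.86), its adjusted p being 0.0669 to 0.138 without any other library; Anxa5 did not pass without ND replicate 1 (0.44, adjusted p = 0.0749), and Anxa3 passed without HFD vehicle replicate 3 (0.68, adjusted p = 0.0355).

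Leaving out the 5 libraries with acinar markers left 3 HFD DTMB, 2 HFD vehicle and 1 ND library in the HFD cohort, and 0 of 16101 genes then passed for HFD DTMB against HFD vehicle, with 2182 at an unadjusted p under 0.05. Anxa2 stood at -1.35, Anxa5 at -0.82, S100a4 at -2.02, S100a6 at -0.97 and S100a11 at -0.64 in that comparison, and 0 members passed. For HFD vehicle against ND, Anxa2 was at 1.85, S100a4 at 3.69, S100a6 at 1.48 and S100a11 at 0.54. The ND library left, replicate 2, had 4 counts of S100a4, so the S100a4 value rests on few reads. The 1 ND library of that fit is assumed to vary like the other groups, which alone supply the spread.

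Markers of monocytes and macrophages (Adgre1, Cd68, Trem2 and 7 others) changed in the same direction as these members only in part. Their sum was 63.1 to 99.9 CPM in HFD DTMB livers, 75.6 to 170 CPM in HFD vehicle livers and 66.2 to 96.0 CPM in ND livers, lowest within HFD vehicle in replicate 3. The groups overlapped in this sum. In HFD DTMB against HFD vehicle, 0 of the 10 markers were higher and 3 lower (Itgax, Ccr2 and Cd9), and in HFD vehicle against ND 6 were higher and 1 lower. Over all genes, 6.64% were higher and 6.04% lower in the first of these comparisons, and 15.2% and 12.6% in the second. Of 7 markers of stellate cells and fibroblasts, 0 were higher and 3 lower in HFD DTMB against HFD vehicle (Col1a1, Col3a1 and Pdgfrb), and 2 were higher and 0 lower in HFD vehicle against ND. Their sum was 174 to 206 CPM in HFD DTMB livers, 196 to 314 CPM in HFD vehicle livers and 182 to 216 CPM in ND livers. The cholangiocyte markers summed to 32.2 to 59.2 CPM in HFD DTMB livers, 44.4 to 68.7 CPM in HFD vehicle livers and 25.8 to 44.4 CPM in ND livers; of the 7, 0 passed for HFD DTMB against HFD vehicle, and 1 was higher and 1 lower for HFD vehicle against ND. The 10 neutrophil markers summed to 0.694 to 1.35 CPM in HFD DTMB livers, 0.823 to 2.58 CPM in HFD vehicle livers and 0.754 to 1.5 CPM in ND livers, with Camp at 0 counts in all 3 groups and Mpo at 0 in HFD DTMB and ND livers. The part of these cell types in the members' differences was not tested.

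**Figure D3:**
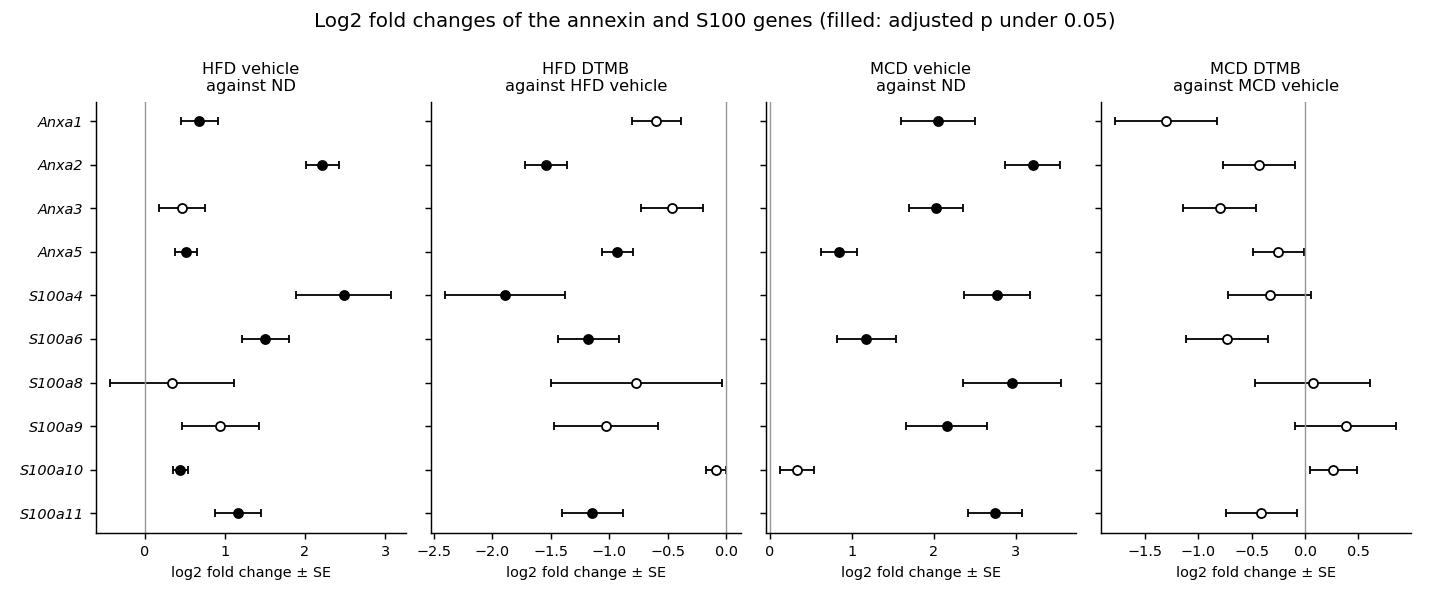
Log2 fold changes (horizontal axes, with SE bars) of the 10 members in the 4 comparisons of diet and of DTMB, filled where the adjusted p was under 0.05. In the HFD cohort 7 members were higher in HFD vehicle than ND livers and 5 were lower in HFD DTMB than HFD vehicle livers; in the MCD cohort 9 were higher in MCD vehicle than ND livers and 0 passed for MCD DTMB against MCD vehicle.

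In the MCD cohort, 9 of the 10 members were higher in MCD vehicle than in ND livers, and no difference between MCD DTMB and MCD vehicle passed. Anxa2 was at 98.2, 47.2 and 53.3 CPM in MCD DTMB livers, 79.2, 133, 89.1 and 55.4 CPM in MCD vehicle livers and 13.8, 5.98, 9.53 and 9.43 CPM in ND livers. Both MCD groups were above ND without overlap, and they overlapped each other. MCD DTMB against MCD vehicle gave -0.43 ± 0.33, MCD vehicle against ND 3.20 ± 0.34 and MCD DTMB against ND 2.77 ± 0.34.

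S100a11 followed the same order. It was at 25.4, 20.8 and 18.4 CPM in MCD DTMB livers, 25.2, 44.8, 29.4 and 15.0 CPM in MCD vehicle livers and 6.71, 3.18, 3.83 and 3.35 CPM in ND livers. S100a4 was at 2.42, 1.18 and 0.956 CPM in MCD DTMB livers, 1.38, 3.05, 1.90 and 1.29 CPM in MCD vehicle livers and 0.296, 0.180, 0.271 and 0.367 CPM in ND livers. For both genes the MCD groups lay above ND without overlap. MCD vehicle against ND gave 2.74 ± 0.33 for S100a11 and 2.76 ± 0.40 for S100a4, and MCD DTMB against MCD vehicle gave -0.41 ± 0.33 and -0.33 ± 0.39 for these genes in that order.

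Anxa1 and Anxa3 had the largest differences between the MCD groups. Anxa1 was at 9.50, 4.13 and 3.99 CPM in MCD DTMB livers, 9.20, 24.7, 13.6 and 10.1 CPM in MCD vehicle livers and 6.08, 1.62, 2.61 and 3.54 CPM in ND livers. Anxa3 was at 7.24, 4.49 and 4.28 CPM in MCD DTMB livers, 5.42, 16, 8.60 and 7.03 CPM in MCD vehicle livers and 2.46, 1.65, 2.46 and 2.52 CPM in ND livers. MCD DTMB replicate 1 lay within the MCD vehicle range for both genes and the other MCD DTMB replicates lay below it. MCD DTMB against MCD vehicle gave -1.30 ± 0.48 for Anxa1 and -0.80 ± 0.34 for Anxa3, unadjusted p = 0.0188 and 0.0366 and adjusted p = 0.919 for both in edgeR's test. MCD vehicle against ND gave 2.05 ± 0.45 for Anxa1 and 2.03 ± 0.32 for Anxa3.

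For MCD vehicle against ND, the abundant Anxa5 and S100a10 had the smallest fold changes. Anxa5 was at 198, 107 and 135 CPM in MCD DTMB livers, 158, 232, 178 and 129 CPM in MCD vehicle livers and 127, 94.1, 83.1 and 83.9 CPM in ND livers. Every MCD vehicle library was above every ND library, by 129 against 127 CPM at the nearest. S100a10 was at 126, 73.9 and 142 CPM in MCD DTMB livers, 97.0, 92.5, 110 and 79.0 CPM in MCD vehicle livers and 58.6, 90.5, 87.5 and 64.0 CPM in ND livers. All 3 groups of S100a10 overlapped, and MCD vehicle against ND gave 0.33 ± 0.20 for S100a10, which did not pass, and 0.85 ± 0.22 for Anxa5, which passed. With library size alone S100a10 passed at 0.81 (adjusted p = 0.00713 in edgeR's test), where the median of all genes was at 0.47. S100a6 was at 2.33, 1.49 and 0.973 CPM in MCD DTMB livers, 1.94, 4.05, 2.55 and 2.03 CPM in MCD vehicle livers and 1.28, 0.587, 1.2 and 1.60 CPM in ND livers, with 1.18 ± 0.36 for MCD vehicle against ND, which did not pass without MCD vehicle replicate 2 (0.90, adjusted p = 0.0639 in edgeR's test).

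S100a8 and S100a9 were both higher on the MCD diet than on the normal diet. S100a8 had 53, 50 and 32 counts in MCD DTMB libraries, 24, 76, 49 and 57 counts in MCD vehicle libraries and 8, 4, 6 and 0 counts in ND libraries. S100a9 had 116, 129 and 53 counts in MCD DTMB libraries, 49, 153, 58 and 104 counts in MCD vehicle libraries and 7, 14, 24 and 10 counts in ND libraries. No MCD library overlapped an ND library for either gene. As S100a8 was tested only because it was high in the MCD groups, its call against ND is a description. MCD vehicle against ND gave 2.95 ± 0.60 for S100a8 and 2.16 ± 0.49 for S100a9, and MCD DTMB against ND gave 3.02 ± 0.63 and 2.54 ± 0.52 for these genes in that order. Of the 10 neutrophil markers 4 were tested, and 3 passed as higher for MCD vehicle against ND (Cxcr2, Mmp8 and Retnlg), where 20.3% of all genes were higher. The filter on low counts chose which were tested, and in ND livers 6 of the 10 had no count. The list summed to 1.68 to 3.29 CPM in MCD DTMB livers, 1.5 to 3.88 CPM in MCD vehicle livers and 0.237 to 2.01 CPM in ND livers, and both MCD groups overlapped ND. Camp and Mpo were at 0 counts in all 3 groups. The part of neutrophils in the S100a8 and S100a9 differences was not tested.

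Between MCD vehicle and ND livers, 9 members were higher and 0 lower, where 20.3% of all 16037 genes tested were higher and 21.0% lower. All 9 had every MCD vehicle library above every ND library, against 17.8% of all genes. Between MCD DTMB and ND livers, 6 members were higher (Anxa2, Anxa3, S100a4, S100a8, S100a9 and S100a11) and 0 lower, where 16.2% of all genes were higher and 16.4% lower. The libraries lay wholly above ND for those 6, against 21.7% of all genes. S100a8, among the 9 and the 6, was tested only because it was high in the MCD groups, so its part in these counts is a description. Without MCD DTMB replicate 1, Anxa3 did not pass for MCD DTMB against ND (0.95, adjusted p = 0.0823 in edgeR's test), while S100a10 passed in DESeq2 (0.62), with only genes above 1 CPM in at least 3 libraries tested (0.61), with library size alone (0.97), and without MCD DTMB replicate 2 (0.83) or ND replicate 2 (0.70), and Anxa5 with library size alone (0.95) and without MCD DTMB replicate 2 (0.78) or ND replicate 1 (0.75). Between MCD DTMB and MCD vehicle livers, 0 members passed, where 0.00624% of all genes, 1 gene, was higher and 0% lower in edgeR's test. At an unadjusted p under 0.05 there were 857 genes (5.34%), 2 of them members. DESeq2 also called 0 members here, and 8 genes in all.

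Monocyte and macrophage markers were higher in sum in MCD vehicle than in ND livers, without overlap. Their sum was 194 to 438 CPM in MCD DTMB livers, 369 to 916 CPM in MCD vehicle livers and 83.7 to 200 CPM in ND livers, and MCD vehicle replicate 2 and MCD DTMB replicate 1, the highest of their groups, were also the highest of their groups for Anxa1, Anxa2, Anxa3, Anxa5, S100a4, S100a6 and S100a11. In ND livers the highest marker sum, 200 CPM in replicate 2, went with the lowest Anxa1, Anxa2, Anxa3, S100a4, S100a6 and S100a11 of the group. For MCD vehicle against ND, 6 of the 10 markers were higher and 0 lower, led by Gpnmb at 9.36 ± 0.82 and Trem2 at 5.51 ± 0.52. Over all genes, 20.3% were higher and 21.0% lower in that comparison. The stellate and fibroblast markers summed to 280 to 302 CPM in MCD DTMB livers, 323 to 564 CPM in MCD vehicle livers and 121 to 286 CPM in ND livers, and 3 of 7 were higher and 0 lower for MCD vehicle against ND. The cholangiocyte markers summed to 34.6 to 48.7 CPM in MCD DTMB livers, 48.0 to 157 CPM in MCD vehicle livers and 36.3 to 53.6 CPM in ND livers. The part of these cells in the members' differences was not tested.

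The difference of the diet effect between cohorts was tested in 1 model of all 22 libraries, as the log2 fold change of HFD vehicle against ND minus that of MCD vehicle against ND. It passed for 2 members, both smaller in the HFD cohort: Anxa3 at -1.59 ± 0.46 and S100a11 at -1.60 ± 0.46, where 18.5% of 16541 genes had a positive and 16.8% a negative difference past the threshold. Without the libraries with acinar markers S100a11 passed (-2.13) and Anxa3 did not (-1.41, adjusted p = 0.222 in edgeR's test). Anxa1 (-1.39 ± 0.54), Anxa2 (-1.01 ± 0.41) and S100a8 (-2.63 ± 1.06) did not pass, with adjusted p of 0.0514, 0.0602 and 0.0599 in edgeR's test. Without MCD cohort ND replicate 1 both Anxa1 (-1.81) and Anxa2 (-1.23) passed. The same pair passed without HFD vehicle replicate 4 (-1.51 and -1.23) or MCD vehicle replicate 4 (-1.53 and -1.18), and Anxa1 (-1.56) and S100a8 (-2.88) passed without MCD vehicle replicate 1. S100a8 also passed without HFD cohort ND replicate 2 (-3.19) or HFD vehicle replicate 1 (-3.12).

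The difference of the DTMB effect between cohorts passed for 0 members and 0% of 16541 genes in edgeR's test, with 1415 genes (8.55%) at an unadjusted p under 0.05, 3 of them members. DESeq2 called 41 genes in all and 0 members. Anxa2 was at -1.09 ± 0.40, S100a4 at -1.54 ± 0.67 and Anxa5 at -0.66 ± 0.28, with adjusted p of 0.46, 0.53 and 0.522. A larger DTMB effect in the HFD cohort is therefore not shown for any member, although 5 passed there and 0 in the MCD cohort.

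Anxa2 and S100a10 form a tetramer, and their balance was followed as the ratio of Anxa2 CPM to S100a10 CPM in each library, which is not per length and is read only between groups. It was 0.105 ± 0.0250 in HFD DTMB livers (SD, n = 4), 0.283 ± 0.0818 in HFD vehicle livers (SD, n = 4) and 0.0830 ± 0.00791 in ND livers (SD, n = 3). HFD vehicle libraries, at 0.209 to 0.400, were all above HFD DTMB libraries, at 0.0734 to 0.126, and ND libraries, at 0.0755 to 0.0913, fell within the range of HFD DTMB. In the MCD cohort the ratio was 0.599 ± 0.205 in MCD DTMB livers (SD, n = 3), 0.940 ± 0.335 in MCD vehicle livers (SD, n = 4) and 0.139 ± 0.0719 in ND livers (SD, n = 4). MCD DTMB libraries, at 0.376 to 0.781, overlapped MCD vehicle libraries, at 0.701 to 1.44, and ND libraries were at 0.0660 to 0.235. The members were chosen with these levels known, so no test is given.

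**Figure D4:**
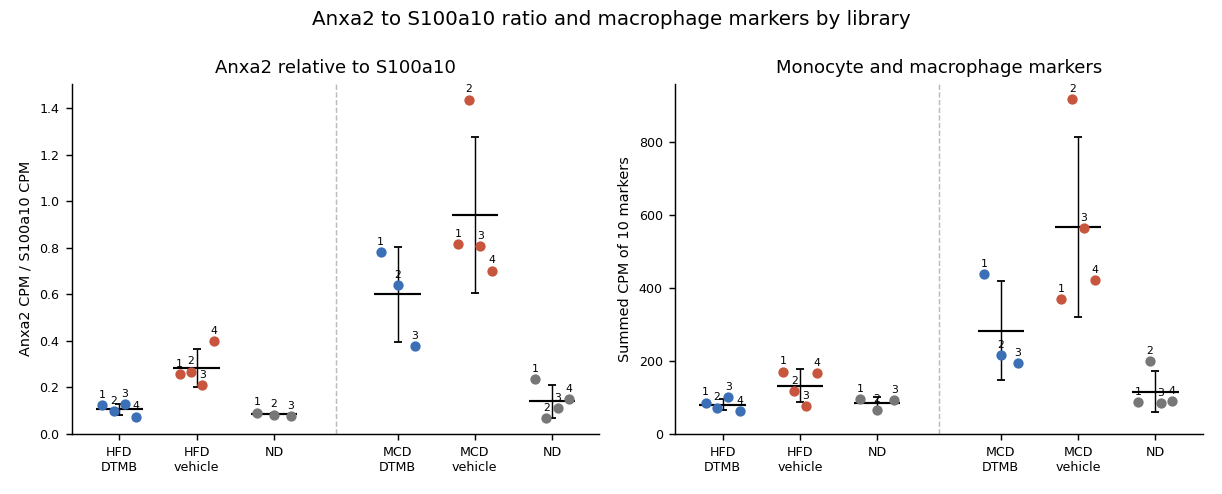
Ratio of Anxa2 to S100a10 CPM (left) and summed CPM of 10 monocyte and macrophage markers (right) in each library, with group mean and SD, HFD cohort left and MCD cohort right of the dashed lines. In HFD vehicle livers the ratio was 0.209 to 0.400 against 0.0734 to 0.126 in HFD DTMB livers, and in the MCD cohort MCD vehicle replicate 2 was highest on both panels, at 1.44 and 916 CPM.

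Within groups, some pairs of members varied together across libraries. Each library's log2 CPM was taken as its deviation from the group mean, and Pearson r was computed over the 22 libraries against 15262 other genes tested in both cohorts. Libraries share their own depth and cell makeup across all genes, so r is a description. Of the 45 pairs of members, 37 had r above 0, with a median of 0.386. The closest pairs were Anxa3 with S100a4 (0.870) and Anxa3 with S100a6 (0.869), followed by Anxa1 with Anxa2 (0.858), Anxa5 with S100a11 (0.833) and Anxa2 with S100a11 (0.827). In that order these were at 0.897, 0.905, 0.582, 0.898 and 0.777 within the HFD cohort and 0.915, 0.869, 0.932, 0.820 and 0.869 within the MCD cohort. Other pairs differed more by cohort, as Anxa1 with Anxa5, at -0.159 in the HFD cohort and 0.792 in the MCD cohort. S100a10 stood apart, its highest r with a member being 0.195 (Anxa5), and with its partner Anxa2 it was at -0.003, rank 7443 of 15262 for Anxa2.

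The genes closest to Anxa2 were Pcolce, an enhancer of procollagen processing, at 0.913, the peptide-amidating enzyme Pam at 0.896 and the fibrillar collagen Col3a1 at 0.890. Within the HFD cohort alone these were 0.908, 0.962 and 0.910, and within the MCD cohort 0.915, 0.883 and 0.885. For S100a8 the closest were Tm6sf1 (0.883), Il12rb2 (0.861) and Dock11 (0.858), while its partner S100a9 ranked 614 at 0.487. At 0 to 76 counts of S100a8 per library, these values carry large counting error.

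Of the 19 other annexin and S100 genes, 10 were tested in the HFD cohort and 11 in the MCD cohort, and 8 were tested in neither, having at most 5 counts in any library (Anxa10, S100a2, S100a3, S100a5, S100a7a, S100a14, S100b and S100z). In HFD DTMB against HFD vehicle livers, 1 was higher, S100a1, at 0.34 ± 0.09 (adjusted p = 0.0386 in edgeR's test), and 0 lower. Over all genes, 6.64% were higher and 6.04% lower in that comparison. In HFD vehicle against ND livers, 5 were higher and 0 lower, where 15.2% of all genes were higher and 12.6% lower. The 5 were Anxa8 (3.12 ± 0.68), Anxa9 (0.82 ± 0.24), Anxa4 (0.57 ± 0.06), Anxa11 (0.37 ± 0.09) and S100a16 (0.32 ± 0.09). Their adjusted p ran from 8.05e-05 to 0.0239 in edgeR's test. Without ND replicate 1, Anxa9 (0.65) and S100a16 (0.25) did not pass, nor did Anxa9 without HFD vehicle replicate 4 (0.73). In HFD DTMB against ND livers, Anxa4 (0.43 ± 0.06), S100a1 (0.37 ± 0.10) and S100a16 (0.37 ± 0.09) were higher and 0 lower, where 15.7% of all genes were higher and 13.5% lower. Without ND replicate 1, S100a1 (0.34) and S100a16 (0.29) did not pass, nor S100a1 without HFD DTMB replicate 4 (0.29). Leaving out the libraries with acinar markers left 1 ND library, so only effect sizes are given. For HFD vehicle against ND, Anxa8 was then at 2.89, Anxa9 at 0.68, Anxa11 at 0.39 and S100a16 at 0.23. For HFD DTMB against ND, Anxa4 was at 0.32, S100a1 at 0.27 and S100a16 at 0.21. These genes were left outside a list chosen with these fold changes known, so their calls are not independent of that choice. Their adjusted p comes from the same fit over all genes, and nothing particular to them is read from their counts. Anxa8, with 13, 6 and 0 counts in ND libraries, was kept only through the HFD groups, so its call against ND is a description.

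Among these, Anxa8 followed the order of Anxa2 at a far lower level. It was at 0.503, 0.242, 0.280 and 0.305 CPM in HFD DTMB livers, 0.553, 1.12, 0.629 and 1.53 CPM in HFD vehicle livers and 0.201, 0.115 and 0 CPM in ND livers, and the 3 groups did not overlap. Anxa8 in HFD DTMB against HFD vehicle was at -1.52 ± 0.54 and did not pass (adjusted p = 0.0806). Anxa4, an annexin of secretory epithelia, also separated the 3 groups and was at 40.3, 39.8, 40.8 and 40.0 CPM in HFD DTMB livers, 42.8, 44.6, 45.3 and 44.6 CPM in HFD vehicle livers and 27.8, 31.8 and 29.7 CPM in ND livers. S100a1, a calcium sensor known best from heart muscle, was at 73.3, 75.3, 92.0 and 94.3 CPM in HFD DTMB livers, 61.8, 62.5, 68.6 and 72.7 CPM in HFD vehicle livers and 63.3, 66.6 and 64.3 CPM in ND livers, and its HFD DTMB libraries lay above both other groups. The S100a1 call for HFD DTMB against HFD vehicle did not hold with library size alone (0.18, adjusted p = 0.199 in edgeR's test). It also failed in that test with no filter (0.32, adjusted p = 0.067) and with only the groups compared (0.34, adjusted p = 0.0531). The same was so without any one of HFD DTMB replicates 3 and 4 and HFD vehicle replicates 1, 2 and 4 (0.26 to 0.38, adjusted p from 0.052 to 0.116). Without the libraries with acinar markers S100a1 was at 0.30 in that comparison. S100a1 overlaps S100a13 on the opposite strand, and the sources used here do not say whether counting used the strand. S100a13 passed in no comparison.

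In MCD vehicle against ND livers, 4 of the 11 others tested were higher and 2 lower, where 20.3% of all genes were higher and 21.0% lower. Nothing particular to these genes is read from the counts. S100g (gene ID 12309, chromosome X, 162961992 to 162964599), the vitamin D-regulated calcium-binding protein calbindin-D9k of the intestine, differed most. It had 655, 460 and 534 counts in MCD DTMB libraries, 504, 488, 506 and 482 counts in MCD vehicle libraries and 2, 0, 0 and 2 counts in ND libraries. As S100g was tested only because it was high in the MCD groups, its calls against ND are a description. Over groups, 1649 counts in MCD DTMB and 1980 in MCD vehicle livers stood against 4 in ND livers, ratios per unit of scaled depth of 445 (95% exact interval of counting error 173 to 1633) and 333 (130 to 1222). In the HFD cohort S100g had at most 12 counts in any library, in HFD vehicle livers, and 0 in ND livers, and it was not tested there.

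Anxa7, an annexin linked to membrane fusion, was at 161, 175 and 210 CPM in MCD DTMB livers, 171, 151, 144 and 161 CPM in MCD vehicle livers and 85.9, 98.5, 102 and 108 CPM in ND livers, with 0.67 ± 0.11 for MCD vehicle against ND. Anxa4 (0.53 ± 0.09) and Anxa9 (0.78 ± 0.23) were also higher in MCD vehicle than ND livers. S100a1 was at 54.3, 50.6 and 59.8 CPM in MCD DTMB livers, 38.2, 44.3, 39.8 and 64.1 CPM in MCD vehicle livers and 88.5, 96.3, 92.4 and 93.1 CPM in ND livers, with -0.99 ± 0.15 for MCD vehicle against ND, and S100a16 was lower too (-0.42 ± 0.13), though with scaling by library size alone its sign turned (0.03, adjusted p = 0.835 in edgeR's test). Anxa9 did not pass without ND replicate 1 (0.65) or ND replicate 4 (0.70). Adjusted p of the 6 genes ran from 3.39e-07 to 0.0187. Between MCD DTMB and ND livers, S100g, Anxa7 and Anxa4 were higher and S100a1 lower, where 16.2% of all genes were higher and 16.4% lower. Between MCD DTMB and MCD vehicle livers 0 of the 11 passed in edgeR's test. There 1, Anxa8, was at an unadjusted p under 0.05, against 5.34% of all genes. The diet effect differed between cohorts for Anxa7 (-0.65 ± 0.13), S100a1 (1.00 ± 0.19) and S100a16 (0.71 ± 0.16), with adjusted p of 0.000416, 0.000412 and 0.00158 in edgeR's test; without the libraries with acinar markers S100a1 (0.93, adjusted p = 0.0592) and S100a16 (0.62, adjusted p = 0.123) did not pass.

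**Figure D5:**
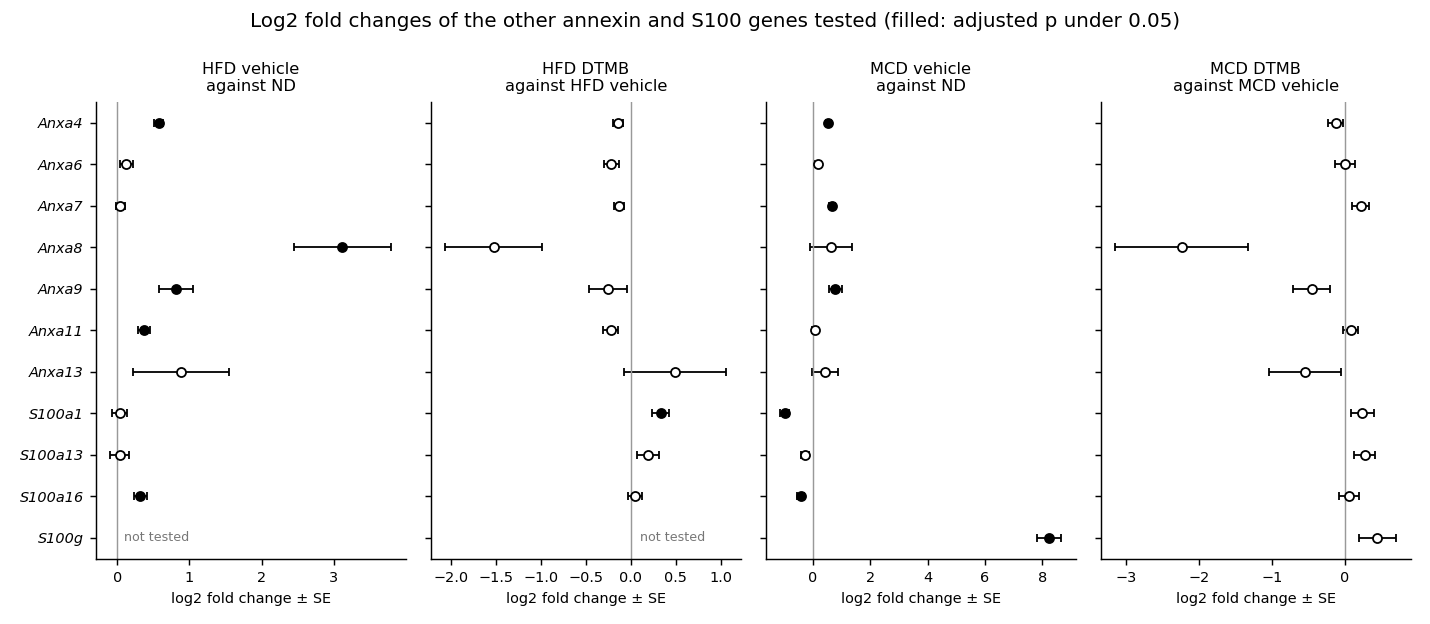
Log2 fold changes (horizontal axes, with SE bars) of the 11 other annexin and S100 genes that were tested, in the 4 comparisons of diet and of DTMB, filled where the adjusted p was under 0.05. S100g is at 8.25 for MCD vehicle against ND livers, a value that depends on the prior count because ND had 4 counts in all, and S100a1 is the filled point at 0.34 for HFD DTMB against HFD vehicle livers.

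The receptors and partners of these proteins were taken as a list of 14 genes, 12 of them tested in each cohort. In HFD DTMB against HFD vehicle livers, 0 were higher and 4 lower: the calpain Capn1 (-0.56 ± 0.10), the S100a4 target Myh9 (-0.69 ± 0.12), the Anxa2 and S100a10 partner Ahnak (-0.57 ± 0.15) and, named after its values were seen, the calprotectin receptor Tlr4 (-0.80 ± 0.24). Tlr4 was at 1.87, 1.51, 2.35 and 1.95 CPM in HFD DTMB livers, 3.44, 3.82, 1.79 and 4.33 CPM in HFD vehicle livers and 2.54, 2.05 and 2.67 CPM in ND livers, with HFD vehicle replicate 3 within the HFD DTMB range. Capn1 and Myh9 passed whichever single library was left out; Ahnak (adjusted p = 0.0551 to 0.0933 in edgeR's test) and Tlr4 (0.0647 to 0.132) passed in the full set and without HFD vehicle replicate 3 only. In HFD vehicle against ND livers, 2 were higher, Capn1 (0.77 ± 0.11) and the fatty acid receptor Cd36 (1.38 ± 0.23), and 0 lower. In MCD vehicle against ND livers, 3 were higher, Cd36 (3.58 ± 0.13), Tlr4 (1.57 ± 0.28) and Ahnak (1.14 ± 0.23), and 1 was lower, Capn1 (-0.46 ± 0.12), also named after its values were seen, whose sign turned with library size alone (0.02, adjusted p = 0.928 in edgeR's test). The Anxa1 receptors Fpr1 and Fpr2 passed in none of these comparisons, and Ager had at most 14 counts in any library. In MCD DTMB against MCD vehicle livers 0 of the 12 passed in edgeR's test, with 2 at an unadjusted p under 0.05. Over all genes, 6.64% were higher and 6.04% lower for HFD DTMB against HFD vehicle, 15.2% and 12.6% for HFD vehicle against ND and 20.3% and 21.0% for MCD vehicle against ND, and nothing particular to this list or to the plasminogen genes is read from their counts.

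Plasminogen and its activators, which the Anxa2 tetramer binds at the cell surface, were taken as a list of 10 genes, 9 of them tested in each cohort. In HFD DTMB against HFD vehicle livers, the tissue-type activator Plat (-1.31 ± 0.33) and the urokinase Plau (-1.13 ± 0.30) were lower and the inhibitor Serpine2 (0.79 ± 0.22) higher. In HFD vehicle against ND livers, 3 were higher, among them Plat (1.33 ± 0.36), and 1 was lower, Serpine2 (-1.09 ± 0.23). Plat was at 0.413, 0.503, 0.560 and 0.508 CPM in HFD DTMB livers, 0.922, 1.66, 0.613 and 1.73 CPM in HFD vehicle livers and 0.465, 0.614 and 0.386 CPM in ND livers. Every HFD DTMB library was below every HFD vehicle library, and HFD vehicle replicate 3 lay within the ND range. For HFD DTMB against HFD vehicle, the adjusted p in edgeR's test was over the threshold without 6 of the 8 single libraries for Plat (0.052 to 0.0802), 4 for Plau (0.0723 to 0.101) and 6 for Serpine2 (0.0713 to 0.101). Plat for HFD vehicle against ND did not pass without ND replicate 1 (1.29) or ND replicate 3 (1.19). In MCD vehicle against ND livers, 5 were higher and 3 lower. Those of smallest p were Serpine2 (-2.84 ± 0.30), plasminogen itself, Plg (-1.13 ± 0.13), and Plau (2.89 ± 0.38). Plg was at 1347, 1221 and 1309 CPM in MCD DTMB livers, 1222, 1041, 1099 and 1477 CPM in MCD vehicle livers and 2769, 2805, 2499 and 2486 CPM in ND livers, and both MCD groups lay below ND without overlap. In MCD DTMB against MCD vehicle livers 0 of the 9 passed in edgeR's test, with 2 at an unadjusted p under 0.05.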

How the data were processed

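RNA of 22 livers was sequenced with a stranded polyA kit, per the labels' protocols, and 2 tables of raw counts per gene, 1 for each cohort, were deposited by the authors. The tools named are HISAT2 2.1.0, StringTie 2.1.3b, Trimmomatic 0.38 and FastQC 0.11.7, with the mm10 build, per the submitters' processing notes; how reads were counted, and with which strand setting, is not given in the sources used here. From the deposited counts, genes were kept with filterByExpr, scaled by TMM and tested within each cohort with edgeR 4.0.16 (quasi-likelihood F test, R 4.3.3, limma 3.58.1), adjusting p over all genes tested and calling a gene at 0.05 with no fold cutoff. The differences between cohorts came from 1 fit of all 22 libraries. CPM uses TMM-scaled library sizes, and SE is the log2 fold change divided by the square root of F. Groups follow the labels, which number biological replicates without saying that numbers pair animals. Counts of 50.1 to 66.7 M per library leave members of under 1 CPM with few reads; intervals on S100g cover counting error only.

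The members, the gene lists and the tests were chosen with earlier results of these data known. All members and all other annexin and S100 genes are named where tested; of the receptor and plasminogen lists, up to 3 genes of smallest p per comparison are named, with exceptions stated, and an item of these lists is not reported here. Alternatives were DESeq2 1.42.0, RLE size factors, library size alone, no filter, a filter at CPM above 1 in at least 3 libraries, a fold cutoff (absolute log2 of 1), the replicate number as a block, only the groups compared, leaving out each library, and leaving out libraries whose acinar markers summed to over 100 CPM. The edgeR procedure was checked on simulated counts. Libraries of a group differed beyond sampling noise in every pair, with a chi-square per degree of freedom of at least 24.9. Of the 45777 genes, 20101 had no count. Promoters are RefSeq sequences on GRCm38.p6, and exon lengths are from the GENCODE annotation. Figures were drawn with matplotlib 3.10.9.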

Additional observations from a re-analysis of the deposited data

Results flagged for a closer look

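Of 40 groups of 4 libraries examined over the members, 3 held a library that stood apart from the other 3 by more than Dixon's 95% limit, where chance gives about 1 in 20 groups. These were HFD DTMB replicate 1 for Anxa1, lowest at 2.25 CPM against 2.78 to 2.86 CPM in its group, ND replicate 2 of the MCD cohort for Anxa3, lowest at 1.65 CPM against 2.46 to 2.52 CPM, and HFD DTMB replicate 4 for S100a10, highest at 132 CPM against 105 to 106 CPM.

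The effect of diet differed between the cohorts, by the interaction term of the joint edgeR fit, for 5 annexin and S100 genes, where 18.5% of all genes had a positive and 16.8% a negative difference past the threshold, so the count is no result about these families. The difference (log2, HFD cohort minus MCD cohort) was -1.59 for Anxa3, -1.60 for S100a11, -0.65 for Anxa7, 1.00 for S100a1 and 0.71 for S100a16. Without the libraries with acinar markers, Anxa3 (adjusted p = 0.222), S100a1 (0.0592) and S100a16 (0.123) did not pass. Cohort, diet model and batch cannot be told apart.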

How the results depend on the processing

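The number of members past the threshold was 0 under all alternatives run for MCD DTMB against MCD vehicle and for the difference of the DTMB effect. For MCD vehicle against ND it was 9 (8 to 10 over the alternatives, 8 to 9 without single libraries) and for MCD DTMB against ND 6 (5 to 8 over both kinds). For HFD DTMB against HFD vehicle it was 5, and 2 to 7 without single libraries. For HFD vehicle against ND it was 7, and 5 to 8 without single libraries. For HFD DTMB against ND it was 3, and 1 to 3 without single libraries. For the difference of the diet effect it was 2, and 2 to 4 without single libraries. Without the libraries with acinar markers these 4 counts were 0, 1, 0 and 1, in an HFD cohort of 6 libraries. The fold cutoff gave 4 for HFD vehicle against ND and 0 for HFD DTMB against ND. DESeq2 and library size alone each gave 5 for the difference of the diet effect.

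Same-numbered libraries did not vary together (10 pairs a cohort, with r of -0.352 to 0.215 among HFD cohort pairs and -0.281 to 0.102 among MCD cohort pairs). So few pairs cannot show whether the numbers pair animals, on which the labels are silent, and the block is given as an alternative only. With the replicate number as a block, 1 member passed for HFD DTMB against ND and 4 for HFD DTMB against HFD vehicle, S100a4 being lost (-1.94, adjusted p = 0.0817). The block also ended the calls of Anxa2 (0.0661) and Anxa5 (0.0621) for HFD DTMB against ND, Anxa1 for HFD vehicle against ND (0.0827) and Anxa3 for MCD DTMB against ND (0.0577), in adjusted p of edgeR's test.

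Library size alone moved the median log2 fold change of all genes to 0.14 for HFD vehicle against ND, -0.17 for HFD DTMB against HFD vehicle, 0.47 for MCD vehicle against ND, 0.37 for MCD DTMB against ND and -0.33 for the difference of the diet effect. Genes higher and lower were then 406 and 2393, in place of 1036 and 942, for HFD DTMB against HFD vehicle, 3361 and 1030, in place of 2374 and 1958, for HFD vehicle against ND, and 7683 and 1170, in place of 3253 and 3373, for MCD vehicle against ND.

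Signs that turned belonged to members that had not passed, and the cause was not tested. For HFD DTMB against ND, S100a11 was at -0.11 with the replicate block, -0.0029 with only the groups compared, -0.10 without acinar libraries and -0.21 to 0.11 without single libraries. In that comparison Anxa3 was at 0.31, Anxa1 at -0.11 and S100a9 at 0.47 without acinar libraries, and without single libraries they ran from -0.17 to 0.12, from -0.050 to 0.16 and from -0.31 to 0.14, with S100a8 at -0.99 to 0.21. S100a8 ran from -0.22 to 0.99 without single libraries for HFD vehicle against ND and was at 0.38 without acinar libraries for HFD DTMB against HFD vehicle. For MCD DTMB against MCD vehicle it was at -0.024 with library size alone, -0.022 with the replicate block and -0.18 to 0.28 without single libraries. For the difference of the diet effect, S100a10 was at -0.24 and S100a6 at -0.021 with library size alone and S100a4 at 0.76 without acinar libraries, and without single libraries S100a10 ran from -0.016 to 0.18 and S100a4 from -0.69 to 0.057. For the difference of the DTMB effect, S100a8 was at 0.33 without acinar libraries and Anxa3 at -0.057 to 0.63 without single libraries. S100a8 has no value without acinar libraries in the 3 comparisons that use ND of the HFD cohort, where 0 counts were left in that group.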

Other observations

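ND replicate 2 of the MCD cohort had the highest sum of monocyte and macrophage markers of its group, 200 CPM, and the highest Fpr1 (6.07 CPM) and Fpr2 (1.71 CPM). It had the lowest Anxa1 (1.62 CPM), Anxa2 (5.98 CPM), Anxa3 (1.65 CPM), S100a4 (0.180 CPM), S100a6 (0.587 CPM) and S100a11 (3.18 CPM) of the group, and the highest S100a10 (90.5 CPM).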
